A study of Homo sapiens with 4 samples.

Results

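Metallothioneins are small cysteine-rich proteins that bind zinc and copper. The 10 genes described here are 8 metallothionein genes (MT1A, MT1E, MT1F, MT1G, MT1H, MT1M, MT1X and MT2A), MTF1, the zinc-sensing transcription factor that switches metallothionein genes on, and SLC30A1, which encodes the plasma-membrane zinc exporter ZnT1. They were taken by gene symbol from the coding table, where all 10 of 10 were found among 19739 genes. Transcript levels had been measured by RNA sequencing in 2 human liver cancer cell lines, Huh7 and cells labelled HepG2. For each line, 1 library came from cells given RSL3@O2-ICG NBS with low-frequency ultrasound for 24 h and 1 from cells given no treatment. The 4 groups are therefore HepG2 treated, HepG2 untreated, Huh7 treated and Huh7 untreated, with 1 library each. RSL3 is an inhibitor of GPX4, the enzyme that reduces lipid hydroperoxides, and induces the cell death called ferroptosis. The agent's components, the carrier and the ultrasound were given together, so their parts cannot be told apart, and cells given 1 of them alone were not analysed here. Both lines were grown in DMEM with serum, per the labels' protocols.

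Free zinc is kept low in cells. When it rises, zinc binds MTF1, which then acts through short DNA elements called metal response elements, or MREs, upstream of metallothionein genes and of SLC30A1. Cadmium, copper, oxidants that release zinc from protein thiols, and glucocorticoids also raise metallothionein transcripts in many cell types, and hepatocytes are among the cells that make most of these proteins.

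The libraries labelled HepG2 went against that label. Of 12 hepatocyte markers, among them albumin and the fibrinogen chains, 0 reached 1 FPKM in either of them and 12 reached it in both Huh7 libraries. FPKM is the number of fragments scaled to transcript length and to library depth. The markers summed to 0.435 FPKM in the treated and 0.528 FPKM in the untreated library labelled HepG2, and ALB, FGA, FGB, FGG, TTR and FOXA2 were listed at 0 in both. They summed to 1511 FPKM in treated and 2002 FPKM in untreated Huh7 cells. These cells are called "labelled HepG2" throughout, and every comparison between lines below carries that difference. Among 5 blood cell markers, PTPRC and CD3E were at 0 in all 4 libraries. CD68, which macrophages and also many cultured cells express, stood at 20.7 FPKM in treated and 1.38 FPKM in untreated cells labelled HepG2, and at 2.83 FPKM in treated and 0.521 FPKM in untreated Huh7 cells. CD14 went the other way in Huh7, at 2.21 FPKM treated and 15.1 FPKM untreated, and the 5 blood markers summed to 21.0 and 1.43 FPKM in treated and untreated cells labelled HepG2 and to 5.14 and 15.7 FPKM in treated and untreated Huh7 cells. The 8 fibroblast markers summed to 10.7 and 12.5 FPKM in treated and untreated cells labelled HepG2, and to 10.5 and 38.2 FPKM in treated and untreated Huh7 cells. Most of the Huh7 sums was LUM, at 8.05 FPKM treated and 31.7 FPKM untreated. In each Huh7 library 2 of the 8 reached 1 FPKM, against 4 of 8 in each library labelled HepG2. Of 4 epithelial markers, 3 reached 1 FPKM in treated and 2 in untreated cells labelled HepG2, and 4 in both Huh7 libraries. The 5 endothelial markers summed to at most 1.15 FPKM in any library. The part of these markers in the results below was not tested. The libraries held between 22900000 and 26400000 fragments, as inferred from the values, with 11156 to 11715 coding genes at 1 FPKM or more.

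The shared coding sequence shows the protein design, and it lets a read match several of these genes. Each of the 8 metallothionein genes has a coding sequence of 186 bases in GENCODE 29, and 20 of its 61 codons before the stop (32.8%) encode cysteine, the residue that holds the metal. In MTF1 2.79% and in SLC30A1 3.55% of codons encode cysteine. The coding sequences of the gene with the highest level in both treated libraries (MT2A) and of the gene with the highest treated-to-untreated ratio (MT1G) are printed with those of MT1E and MT1X, the other pair read in both lines. Cysteine codons are in capitals. All 4 lie on chromosome 16 (GRCh38), with coding spans, introns included, of 56608656 to 56609354 for MT2A, 56625852 to 56626971 for MT1E, 56682541 to 56684049 for MT1X and, on the minus strand, 56666879 to 56667993 for MT1G.
MT2A: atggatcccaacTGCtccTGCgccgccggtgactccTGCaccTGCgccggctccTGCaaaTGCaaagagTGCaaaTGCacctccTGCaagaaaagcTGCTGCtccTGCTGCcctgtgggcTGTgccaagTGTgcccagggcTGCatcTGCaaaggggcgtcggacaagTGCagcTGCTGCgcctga
MT1E: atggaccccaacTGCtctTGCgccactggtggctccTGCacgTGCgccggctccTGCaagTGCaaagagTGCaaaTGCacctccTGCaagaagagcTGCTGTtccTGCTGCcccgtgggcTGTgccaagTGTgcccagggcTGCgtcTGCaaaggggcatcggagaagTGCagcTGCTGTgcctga
MT1X: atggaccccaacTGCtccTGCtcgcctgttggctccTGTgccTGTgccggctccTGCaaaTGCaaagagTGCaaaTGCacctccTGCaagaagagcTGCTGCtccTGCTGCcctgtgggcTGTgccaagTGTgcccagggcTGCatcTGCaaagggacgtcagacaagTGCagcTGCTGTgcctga
MT1G: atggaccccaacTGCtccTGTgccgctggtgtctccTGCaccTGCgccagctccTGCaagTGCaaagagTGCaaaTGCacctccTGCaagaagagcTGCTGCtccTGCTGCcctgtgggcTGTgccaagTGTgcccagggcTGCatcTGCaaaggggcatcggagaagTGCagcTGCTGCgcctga

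The cysteine codons fall at the same places in all 4 runs. Over the 28 pairs of metallothionein genes, identity of the coding sequences ranged from 88.7% to 95.2%, with a median of 91.9%. Of all 50-base windows of the full annotated transcript, 4.88% of those of MT2A, 5.34% of those of MT1E, 20.2% of those of MT1G and 45.1% of those of MT1X also occur, letter for letter, in a transcript of another gene. For MT2A, 401 of its 786 bases lie within the gene's listed position, and the share over that part alone was not computed. MT1X shares most with AC026461.1 (29.2% of its windows), and MT1G shares most with MT1X (13.2%). MT1X had the highest share of such windows of the 8, and its level is uncertain where the authors' counting split reads between copies.

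The upstream windows are shown because MTF1 acts through them. The 250 bases before the start site were taken from RefSeq (GRCh38.p14), which gave a window for 5 of the 10 genes. Those without an entry are MT1A, MT1E, MT1F, MT1G and MT1M. The motif searched on both strands was TGCACNC or TGCGCNC, the MRE core, and its matches are in capitals, in either orientation. The windows are chr16:56608334-56608583 for MT2A, chr16:56682220-56682469 for MT1X and chr16:56669564-56669813 for MT1H, all on the plus strand, and chr1:211579162-211579411 on the minus strand for SLC30A1.
MT2A: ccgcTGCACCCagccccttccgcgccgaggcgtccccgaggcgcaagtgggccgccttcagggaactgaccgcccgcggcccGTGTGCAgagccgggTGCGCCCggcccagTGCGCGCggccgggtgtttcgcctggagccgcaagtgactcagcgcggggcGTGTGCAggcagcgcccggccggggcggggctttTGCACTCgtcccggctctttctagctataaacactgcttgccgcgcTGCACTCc
MT1X: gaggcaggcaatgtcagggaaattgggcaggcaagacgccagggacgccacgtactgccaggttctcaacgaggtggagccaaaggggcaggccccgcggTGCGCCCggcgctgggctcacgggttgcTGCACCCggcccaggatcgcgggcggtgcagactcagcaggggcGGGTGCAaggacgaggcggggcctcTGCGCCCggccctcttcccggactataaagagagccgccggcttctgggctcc
MT1H: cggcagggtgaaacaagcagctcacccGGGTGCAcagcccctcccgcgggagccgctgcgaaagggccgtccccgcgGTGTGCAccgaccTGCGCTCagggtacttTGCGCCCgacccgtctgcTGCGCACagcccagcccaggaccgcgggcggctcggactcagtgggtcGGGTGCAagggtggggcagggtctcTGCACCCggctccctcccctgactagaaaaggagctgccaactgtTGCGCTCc
SLC30A1: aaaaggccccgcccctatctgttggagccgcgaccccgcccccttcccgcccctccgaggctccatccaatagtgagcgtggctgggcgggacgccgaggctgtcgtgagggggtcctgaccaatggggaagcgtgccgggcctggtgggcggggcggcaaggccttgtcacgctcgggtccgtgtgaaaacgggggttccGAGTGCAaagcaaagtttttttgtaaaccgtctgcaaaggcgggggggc

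MT1H held 8 matches, MT2A 7, MT1X 4, SLC30A1 1 and MTF1 0. Of 35116 windows of the same length upstream of RefSeq genes, 24.8% held at least 1 match, 0.370% at least 4, 0.0313% at least 7 and 0.0171% at least 8. The motif is rich in G and C, as are these windows (66.4% to 73.2% G or C). Among the 16148 windows with at least 60% G or C, 37.7% held at least 1 match and 0.737% at least 4. In that set 0.0557% held at least 7 and 0.0248% at least 8. The antioxidant response element core, TGACNNNGC on both strands, occurred 1 time each upstream of MT2A, MT1X and SLC30A1 and not upstream of MT1H or MTF1, against 10.9% of all windows with at least 1, and overlapped no MRE match. The share of windows rich in G and C that hold this core was not computed. A match is a run of letters and not a shown binding site. The number of MRE matches did not order the levels, since MT1H had the most and was listed at 0 in every library.

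MT2A, the metallothionein that most human cell types express, was higher after treatment in both lines. Its level was 219 FPKM in treated and 89.3 FPKM in untreated cells labelled HepG2, and 309 FPKM in treated and 87.4 FPKM in untreated Huh7 cells. Both treated libraries lay above both untreated ones, and the untreated libraries of the lines lay close together. The treated level was 2.45 times the untreated one in cells labelled HepG2 (95% counting interval 2.27 to 2.65) and 3.53 times in Huh7 (3.28 to 3.81). These intervals cover counting error of 1 library a group and say nothing of the spread between cultures. They rest on about 2037 treated and 920 untreated fragments in cells labelled HepG2 and about 2833 treated and 925 untreated in Huh7. These were inferred from the FPKM values and annotated transcript lengths, cut to each gene's listed position here and below. For MT2A that kept 401 of 786 annotated bases, so its fragment numbers and intervals depend on which transcript length is right. In bulk RNA, a change in the share of cells that make a transcript and a change in the amount per cell cannot be told apart, here and in all values below.

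MT1X was also higher in both treated libraries, by less than 2-fold. It stood at 44.9 FPKM in treated and 23.9 FPKM in untreated cells labelled HepG2, a ratio of 1.88 (1.60 to 2.20). In Huh7 it stood at 143 FPKM treated and 88.4 FPKM untreated, a ratio of 1.61 (1.48 to 1.75). On the log2(FPKM + 1) scale used for counts below, these are differences of 0.88 and 0.68, both short of 2-fold.

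MT1E was the most abundant metallothionein of untreated cells labelled HepG2, and the lines differed in its ratio. Its level was 154 FPKM in treated and 138 FPKM in untreated cells labelled HepG2, a ratio of 1.11 (1.05 to 1.17). It was 170 FPKM in treated and 74.2 FPKM in untreated Huh7 cells, a ratio of 2.30 (2.15 to 2.45). In Huh7 the treated library was thus the highest of the 4 and the untreated the lowest. With libraries scaled by median-of-ratios size factors, the log2 difference in cells labelled HepG2 was 0.03 in place of 0.15. That in Huh7 was 1.04 in place of 1.19. Whether the lines respond differently could not be tested with 1 library a group.

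MT1G, MT1M, MT1F and MT1A were read in Huh7 and were at or next to 0 in both libraries labelled HepG2. MT1G reached 151 FPKM in treated and 31.4 FPKM in untreated Huh7 cells, a ratio of 4.79 (4.25 to 5.41). In the treated library labelled HepG2 it was listed at 0.105 FPKM, about 1 fragment, and in the untreated one at 0. MT1M stood at 22.0 FPKM in treated and 5.63 FPKM in untreated Huh7 cells, a ratio of 3.90 (2.91 to 5.29). The MT1M ratio rests on about 203 treated and 60 untreated fragments, and its interval contains that of MT2A in Huh7. For MT1M, 403 of 829 annotated bases lie within the gene's listed position, so the limit given for MT2A holds here too. MT1F stood at 98.7 FPKM in treated and 47.3 FPKM in untreated Huh7 cells, a ratio of 2.09 (1.91 to 2.28). MT1A, the lowest of those read, stood at 8.59 FPKM treated and 4.67 FPKM untreated, a ratio of 1.84 (1.27 to 2.68). An assembled noncoding transcript that overlaps MT1A stood at 1.28 FPKM in treated and 0.472 FPKM in untreated Huh7 cells, and the labels do not say whether strand was kept, so reads of the 2 cannot be told apart. MT1F, MT1M and MT1A were at 0 in both libraries labelled HepG2, where 3 fragments would have given 0.179 to 0.327 FPKM. MT1H was at 0 in all 4 libraries, where 3 fragments would have given 0.286 to 0.330 FPKM.

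**Figure D1:**
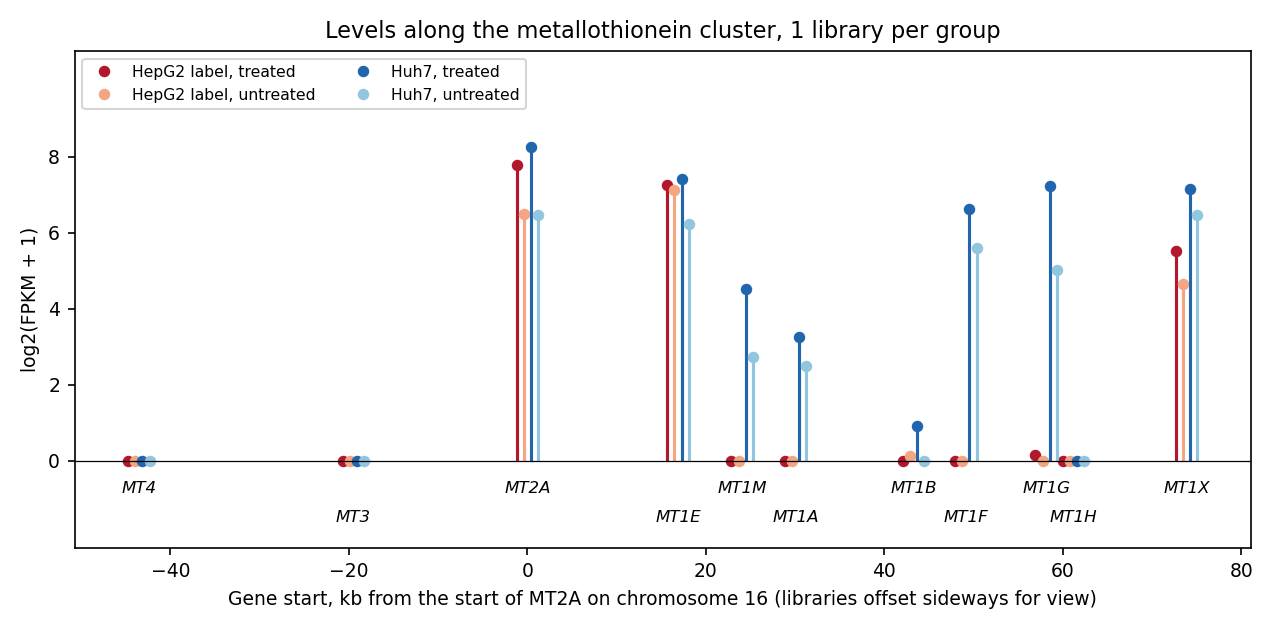
Level of each coding gene of the metallothionein cluster, as log2(FPKM + 1), against the distance of its start from that of MT2A in kb; each stem is 1 library, offset sideways for view. MT2A, MT1E and MT1X are read in all 4 libraries, MT1M, MT1A, MT1F and MT1G stand above 1 FPKM in Huh7 alone, and MT4, MT3 and MT1H are at 0 throughout.

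The silent and the read genes lay side by side in the same cluster, as the plot of levels along the cluster shows. In the files' coordinates the 11 coding metallothionein genes span 119 kb of chromosome 16, from MT4 to MT1X, with no other coding gene of the table between them. By position, MT2A (56608584 to 56609497) and MT1E (56625475 to 56627112) were read in all 4 libraries, and so was MT1X (56682470 to 56684196) at the other end. Between them lie MT1M (56632659 to 56634673), MT1A (56638666 to 56640087), MT1F (56657731 to 56660698) and MT1G (56666731 to 56668065, minus strand), all read in Huh7, and MT1H (56669814 to 56671129), at 0. MT1B, in the same stretch, stood at 0.890 FPKM in treated Huh7 cells, 0 in untreated Huh7 cells, 0 in treated and 0.0812 FPKM in untreated cells labelled HepG2. Of the other 4 metallothionein genes of the table (MT1B, MT1HL1, MT3 and MT4), 0 of 4 reached 1 FPKM in any library. MT3 is the brain-enriched member of the family, and MT4 that of stratified epithelium.

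MTF1, the sensor itself, was higher in both treated libraries by less than 2-fold. It stood at 4.17 FPKM in treated and 2.67 FPKM in untreated cells labelled HepG2, a ratio of 1.56 (1.40 to 1.75). In Huh7 it stood at 3.79 FPKM treated and 2.50 FPKM untreated, a ratio of 1.51 (1.35 to 1.70). The ratios of the lines lay within each other's counting interval. MTF1 is known to be regulated mainly through its protein, which these data do not measure. The gene lies on chromosome 1, 37809574 to 37859592, minus strand.

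SLC30A1, the exporter and a known MTF1 target, differed little between the libraries. It stood at 23.3 FPKM in treated and 19.6 FPKM in untreated cells labelled HepG2, a ratio of 1.19 (1.13 to 1.25). In Huh7 it stood at 19.8 FPKM treated and 18.1 FPKM untreated, a ratio of 1.09 (1.04 to 1.16). With libraries scaled by median-of-ratios size factors, the Huh7 difference on the log2 scale was -0.02 in place of 0.12. The gene lies on chromosome 1, 211571568 to 211579161, minus strand.

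**Figure D2:**
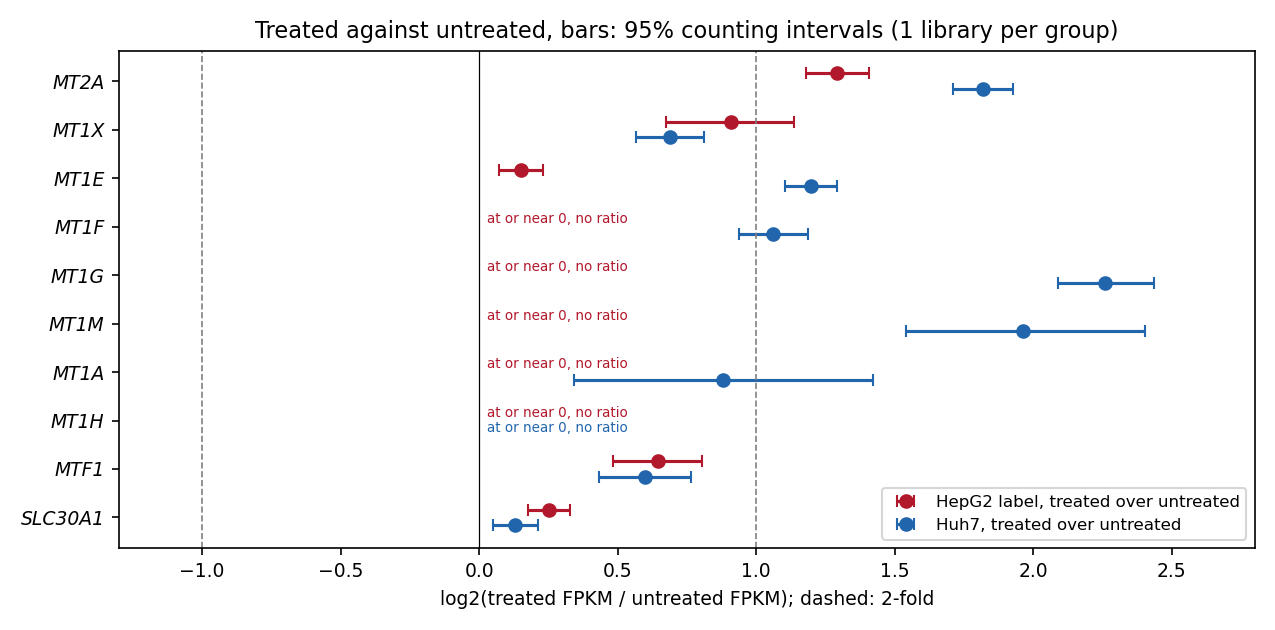
Ratio of treated to untreated FPKM of each gene on a log2 axis, for cells labelled HepG2 and for Huh7; points are the single ratio of a line and bars its 95% counting interval. MT2A lies beyond 2-fold in both lines, MT1E, MT1F, MT1M and MT1G in Huh7, and SLC30A1 lies near 0 in both.

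Counted over the group, 1 of the 5 genes read in cells labelled HepG2 was at least 2-fold higher in the treated library (MT2A), against 6.70% of the 11843 genes read there. None of the 5 was at least 2-fold lower, against 2.43% of all genes. A gene is read where it reaches 1 FPKM in at least 1 of the 2 libraries, and ratios are of FPKM + 1, which understates the change of low genes. In Huh7, 5 of the 9 genes read were at least 2-fold higher in the treated library (MT1G, MT2A, MT1M, MT1E and MT1F), against 3.88% of 11945 genes, and 0 of 9 at least 2-fold lower, against 2.19%. The median log2 difference was 0.50 over the 5 genes in cells labelled HepG2, where that of all genes was 0.09, and 1.04 over the 9 in Huh7, where that of all genes was 0.10. The 4 genes near 0 in cells labelled HepG2 are not part of that line's median. Size factors moved the median of all genes to -0.02 in cells labelled HepG2 and to -0.03 in Huh7. With them MT1F was under the limit, leaving 4 of 9 in Huh7, while MT2A alone passed in cells labelled HepG2 as before. Over all genes, they gave 612 higher and 383 lower in cells labelled HepG2, in place of 794 and 288, and 299 higher and 372 lower in Huh7, in place of 464 and 261.

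Summed, the 8 metallothioneins gave 418 FPKM in treated and 252 FPKM in untreated cells labelled HepG2, a ratio of 1.66. In Huh7 they gave 901 FPKM treated and 339 FPKM untreated, a ratio of 2.66. That is 0.122% and 0.0713% of the coding FPKM of treated and untreated cells labelled HepG2, and 0.239% and 0.0916% of that of treated and untreated Huh7 cells. MT2A made up 52.4% of the sum in treated and 35.5% in untreated cells labelled HepG2, and 34.2% in treated and 25.8% in untreated Huh7 cells. MT1E made up 36.8% in treated and 55.0% in untreated cells labelled HepG2, so MT2A was the most abundant in treated cells and MT1E in untreated ones. MT1G made up 16.7% of the sum in treated and 9.27% in untreated Huh7 cells, and MT1X 15.8% in treated and 26.1% in untreated ones. In untreated Huh7 cells MT1X and MT2A lay next to each other at the top, at 88.4 and 87.4 FPKM.

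**Figure D3:**
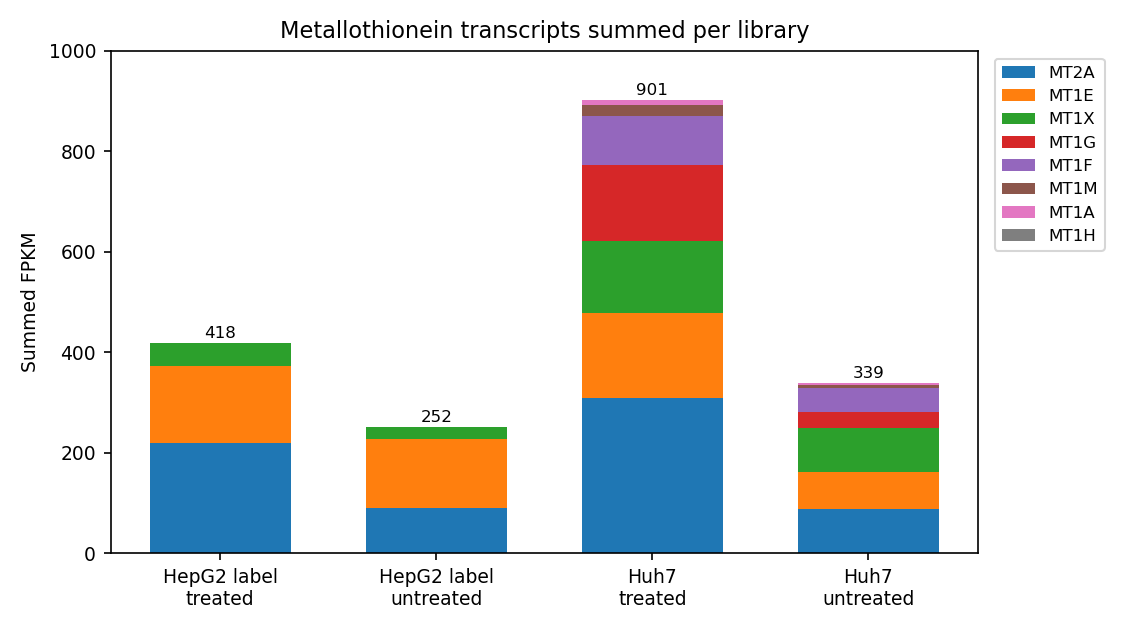
Summed FPKM of the 8 metallothionein genes in each of the 4 libraries, stacked by gene. The sum is 418 and 252 FPKM in treated and untreated cells labelled HepG2, made of MT2A, MT1E and MT1X, and 901 and 339 FPKM in treated and untreated Huh7 cells, made of 7 genes.

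The lines also differed without treatment, and the gap lay in which genes were read. In untreated Huh7 cells against untreated cells labelled HepG2, 5 of 9 genes were at least 2-fold higher (MT1G, MT1X, MT1M, MT1A and MT1F) and 0 lower, where 17.5% of 12446 genes were higher and 17.2% lower. MT1G, MT1M, MT1A and MT1F were at 0 in the library labelled HepG2 and read through Huh7 alone. Their being read already made them count as higher, so the count of 5 is not a result apart from that filter. Set against 3 fragments in the library labelled HepG2, MT1F was at least 265-fold, MT1G at least 109-fold, MT1M at least 19.5-fold and MT1A at least 15.8-fold higher in untreated Huh7 cells. MT1X had a ratio of 3.69 (3.20 to 4.26). MT2A did not differ beyond counting error, with a ratio of 0.979 (0.892 to 1.07), nor did MTF1 (0.938, 0.830 to 1.06). MT1E was lower in untreated Huh7 cells, at 0.536 times the level in untreated cells labelled HepG2 (0.502 to 0.573). In treated cells the MT1E ratio of Huh7 over cells labelled HepG2 was 1.11 and that of MT2A 1.41 (1.33 to 1.49). The hepatocyte markers, at 0 of 12 and 12 of 12 in the lines, move with this gap, and their part in it was not tested.

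One test was possible across the libraries. It was limma on log2(FPKM + 1) with cell line as a block, which takes the lines as the only repeats. The mean treatment difference over both lines is set against an error drawn toward that of genes of like level. A gene has 1 residual degree of freedom of its own and 7.56 in total. The errors and p-values below thus rest mostly on other genes and do not measure that gene's own disagreement between lines. Of 13030 genes tested 0 passed an adjusted p of 0.05 (0%), and 1534 (11.8%) had an unadjusted p below 0.05. Of the 9 genes of the group that entered the fit 0 passed, and 4 had an unadjusted p below 0.05 (MT2A, MT1X, MT1E and MT1G). MT1G, MT1M, MT1F and MT1A entered through Huh7 alone. They were at or next to 0 in both libraries labelled HepG2, so that line is no repeat for them, and their fit says nothing about both lines. By limma, MT2A had a mean log2 difference of 1.55 ± 0.21 (SE; adjusted p = 0.166, and 0.108 to 1.00 over the settings tried) and was higher in 2 of 2 lines. MT1X had 0.78 ± 0.21 (adjusted p = 0.270 by limma), and MT1G, read in 1 line, 1.19 ± 0.46 (adjusted p = 0.377). A missed threshold with 1 residual degree of freedom does not show that levels were equal.

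The remaining zinc transporters shared no direction. The ZnT proteins (SLC30A2 to SLC30A10) carry zinc out of the cytosol, into vesicles or out of the cell. Their median log2 differences were -0.28 in cells labelled HepG2 and 0.16 in Huh7, against 0.09 and 0.10 over all genes. Of 5 read in cells labelled HepG2, 1 was at least 2-fold higher and 0 lower, against 6.70% and 2.43% of all genes read there. Of 5 read in Huh7, 0 were higher and 0 lower, against 3.88% and 2.19%. The exception was SLC30A3, a vesicle zinc transporter best known from neurons, at 8.19 FPKM in treated and 1.05 FPKM in untreated cells labelled HepG2, against 0.681 FPKM in treated and 0.0800 FPKM in untreated Huh7 cells. SLC30A7, a Golgi zinc transporter, was lower in both lines by less than 2-fold, at 7.74 FPKM in treated and 10.1 FPKM in untreated cells labelled HepG2, and 9.62 FPKM in treated and 12.4 FPKM in untreated Huh7 cells. SLC30A6, which acts in the same compartment, stood at 12.7 FPKM treated and 8.30 FPKM untreated in cells labelled HepG2, with a log2 difference of 0.19 in Huh7. SLC30A10, a manganese exporter despite its family name, stood at 3.73 FPKM in treated and 7.64 FPKM in untreated Huh7 cells and at 0 in both libraries labelled HepG2.

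The ZIP proteins (SLC39A1 to SLC39A14) carry zinc into the cytosol. Of 11 read in cells labelled HepG2, 2 were at least 2-fold higher and 1 lower, against 6.70% and 2.43% of all genes read there. Of 11 read in Huh7, 0 were higher and 0 lower, against 3.88% and 2.19%. The medians were -0.00 and 0.03. SLC39A1, a widely expressed plasma-membrane importer, stood at 144 FPKM in treated and 66.3 FPKM in untreated cells labelled HepG2, a log2 difference of 1.11 that came to 0.99 with size factors. In Huh7 it stood at 64.7 FPKM treated and 53.0 FPKM untreated. SLC39A11 stood at 19.9 FPKM treated and 8.30 FPKM untreated in cells labelled HepG2, and at 23.3 FPKM treated and 15.2 FPKM untreated in Huh7. SLC39A10, an importer of the plasma membrane, went the other way in cells labelled HepG2, at 5.04 FPKM treated and 14.4 FPKM untreated, and in Huh7 lay at 6.30 FPKM treated and 5.78 FPKM untreated. SLC39A13, an importer known from connective tissue, had log2 differences of 0.70 in cells labelled HepG2 and 0.94 in Huh7. Importers and exporters thus held both higher and lower genes in cells labelled HepG2, and no transporter of either family passed 2-fold in Huh7. With a pseudocount of 0.1, SLC39A13 (higher) and SLC30A10 (lower) passed it there, and with libraries rescaled to equal sums SLC30A2 and SLC30A3 did (higher).

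Metallothioneins also bind copper, and few of the copper genes passed 2-fold in either line. Of 8 read in cells labelled HepG2, 1 was at least 2-fold higher and 0 lower, against 6.70% and 2.43% of all genes read there. Of 9 read in Huh7, 0 were higher and 0 lower, against 3.88% and 2.19%. The medians were 0.19 and -0.12. SLC31A1 (CTR1), the main copper importer, stood at 25.4 FPKM in treated and 13.0 FPKM in untreated cells labelled HepG2, and at 20.4 FPKM in treated and 34.0 FPKM in untreated Huh7 cells. The treated library was the higher one in cells labelled HepG2 and the lower one in Huh7. SLC31A2, a related protein of vesicles, stood at 7.62 FPKM treated and 3.07 FPKM untreated in cells labelled HepG2, a log2 difference of 1.08 (0.98 with size factors), and at 0.42 on that scale in Huh7. Of the copper-exporting ATPases, ATP7A stood at 1.31 FPKM in treated and 0.438 FPKM in untreated Huh7 cells, and ATP7B, the hepatocyte form, at 3.26 FPKM in treated and 5.22 FPKM in untreated Huh7 cells. In cells labelled HepG2 the log2 difference of ATP7A was 0.19, and ATP7B, at 0.583 FPKM treated and 0.270 FPKM untreated, was not read. ATP7A passed 2-fold in Huh7 with a pseudocount of 0.1 or with rescaled libraries.

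Genes that answer to metals and to oxidants alike were read next to the group. Of 14 such genes, 3 of 14 read in cells labelled HepG2 and 6 of 13 read in Huh7 were at least 2-fold higher and 0 lower in either. Over all genes read, 6.70% and 3.88% were higher and 2.43% and 2.19% lower in cells labelled HepG2 and in Huh7. The list's medians were 0.19 and 0.95, against 0.09 and 0.10 over all genes. With size factors the Huh7 count was 1 of 13 and its median 0.84, as several genes lay close to the limit. With that scaling 299 of 11944 genes were higher in Huh7, and the median of all genes was -0.03. A pseudocount of 0.1 gave 8 of 13 in Huh7, where 970 of 11945 genes were higher. Rescaled libraries gave 8 of 14 there, where 767 of 12947 genes were higher. In cells labelled HepG2 both settings gave 4 of 14, where 1331 of 11843 and 1503 of 12815 genes were higher. HMOX1, the heme oxygenase, passed in both lines with and without size factors, at 81.0 FPKM treated and 22.7 FPKM untreated in cells labelled HepG2 and 55.6 FPKM treated and 21.0 FPKM untreated in Huh7. HSPA1A, a heat shock chaperone whose reads can be split with its near-identical copy HSPA1B, stood at 162 FPKM treated and 65.8 FPKM untreated in cells labelled HepG2 and 71.2 FPKM treated and 35.0 FPKM untreated in Huh7. The counts of 3 and 6 hold both copies, which cannot be taken as separate genes. GCLC, which makes glutathione, had log2 differences of 0.22 in cells labelled HepG2 and 1.05 in Huh7 (0.91 with size factors).

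Targets of the glucocorticoid receptor, which also acts on metallothionein genes, were read because serum holds glucocorticoids. Of 8 targets 7 are in the table, and of the 6 read in each line 0 were at least 2-fold higher and 0 lower. Over all genes read, 6.70% and 3.88% were higher and 2.43% and 2.19% lower in cells labelled HepG2 and in Huh7. The targets had medians of 0.28 in cells labelled HepG2 and -0.09 in Huh7. SGK1, a kinase, was lower in both lines, at 9.19 FPKM treated and 15.7 FPKM untreated in cells labelled HepG2 and 10.9 FPKM treated and 19.5 FPKM untreated in Huh7. DUSP1, a phosphatase of MAP kinases, stood at 67.0 FPKM treated and 38.2 FPKM untreated in cells labelled HepG2 and at 59.6 FPKM treated and 98.8 FPKM untreated in Huh7. TSC22D3 (GILZ) had log2 differences of 0.42 and -0.12, and KLF9 of 0.64 and 0.44, in cells labelled HepG2 and in Huh7. KLF9, a transcription factor, passed 2-fold in cells labelled HepG2 with a pseudocount of 0.1 or with rescaled libraries.

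**Figure D4:**
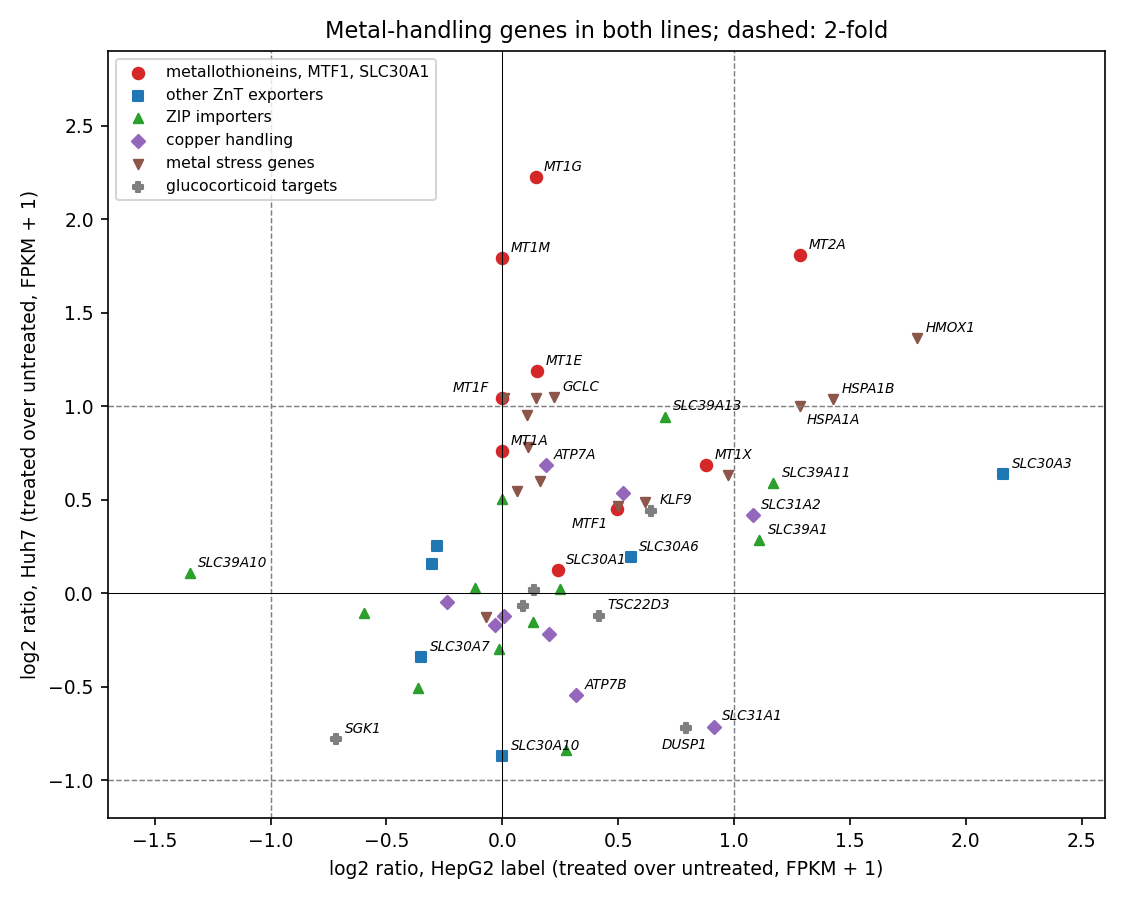
Log2 difference of treated over untreated libraries (FPKM + 1) in cells labelled HepG2, x axis, and in Huh7, y axis, for the genes of the 6 lists that reach 1 FPKM in at least 1 library; 1 point is 1 gene and dashed lines mark 2-fold. MT2A, HMOX1, HSPA1A and HSPA1B lie in the upper right, and SLC31A1 and DUSP1 in the lower right. MT1G, MT1M, MT1E and MT1F lie high on the Huh7 axis alone. GCLC and other genes that answer to metals and oxidants do so too, at about the height of MT1F.

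The genes whose pattern over the 4 libraries lay nearest to that of MT2A came from other pathways. Nearness was the root mean square difference of centred log2(FPKM + 1) among 7590 other genes at 10 FPKM or more. AMDHD2, an enzyme of amino sugar breakdown, was nearest at 0.0517, with 28.0 FPKM in treated and 11.6 FPKM in untreated cells labelled HepG2 and 41.6 FPKM in treated and 11.9 FPKM in untreated Huh7 cells. TXNIP, an inhibitor of thioredoxin, followed at 0.135, and then CALCOCO1, SDSL and IDI1. For MT1G the nearest was AKR1C1, an aldo-keto reductase, at 0.394, with 98.8 FPKM in treated and 27.8 FPKM in untreated Huh7 cells and under 1 FPKM in both libraries labelled HepG2. MT1F came next at 0.421, followed by BEX2, APOB and HGD, all near 0 in cells labelled HepG2. With 4 libraries the measure describes a shape and does not test it.

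In the authors' deposited tables of Gene Ontology terms, MT2A was the 1 gene of the 10 in any term for cells labelled HepG2, and MT1G, MT1M and MT2A were the 3 for Huh7. The lists behind those tables held 2438 of 22135 background genes in Huh7 and 3213 of 22135 in cells labelled HepG2. For "response to zinc ion" the authors' deposited table lists 19 of the term's 54 genes in Huh7 (corrected p-value 0.000135) and 12 of 54 in cells labelled HepG2 (corrected p-value 0.465). Of these, 3 of the 19 and 1 of the 12 belong to the 10 genes described here, so the term's result rests mostly on other genes. For "cellular response to zinc ion" the authors' deposited table lists 7 of 22 genes in Huh7 (corrected p-value 0.0860) and 3 of 22 in cells labelled HepG2 (corrected p-value 1.0). For the 10 other terms that name zinc, cadmium or copper and hold at least 1 of the genes, the authors' deposited table gives corrected p-values of 0.0871 to 1.0 in Huh7 and 0.731 to 1.0 in cells labelled HepG2. For the KEGG pathway Mineral absorption, the authors' deposited table gives a corrected p-value of 0.845 in Huh7 and 0.847 in cells labelled HepG2. The sources used here do not say by what rule genes went into those tables.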

How the data were processed

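RNA from 4 libraries, 1 per group, was made with Trizol and an Illumina TruSeq kit, per the labels' protocols. The authors deposited FPKM per coding gene and per long noncoding transcript, and p-values per Gene Ontology term and KEGG pathway, per the file headers. StringTie 1.3.1, Cuffdiff 2.1.1, HISAT2 and Bowtie2 2.2.8 appear in the submitters' processing notes, without roles. The build the authors used is not stated in these sources. Of 19664 coding genes with a GENCODE 29 identifier, 99.8% overlap its position, so coordinates are GRCh38 by this match.

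Since FPKM hold no counts, count models were not used. The depth came from the steps between low FPKM values of genes with 1 transcript, and counting intervals (95%, exact binomial on inferred fragments) are approximate and cover counting error only. Ratios were taken on log2(FPKM + 1), over genes at 1 FPKM or more in at least 1 library compared, and counted at 2-fold. A line has 1 library per group, so nothing was tested within it. limma 3.58.1 (R 4.3.3, trend, Benjamini-Hochberg) was fitted on all 4 libraries with cell line, from the labels, as a block. Its code was run on simulated data whose effects were alike in both lines and larger than the mean differences of these genes. That run does not show how well differences like theirs are found. Alternatives were a pseudocount of 0.1, no filter, a minimum of 5 FPKM, rescaling each library to an equal sum, size factors and no block.

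The genes named are all 10 genes, the 4 with the largest absolute ratio of each other list, the 5 nearest in pattern to MT2A and MT1G, and terms naming zinc, cadmium or copper ion. The genes and lists were chosen with earlier results of these data known.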

Additional observations from a re-analysis of the deposited data

Results flagged for a closer look

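SLC31A1, the copper importer, had a log2 difference of 0.91 between treated and untreated cells labelled HepG2 and of -0.71 in Huh7. DUSP1 had differences of 0.79 in cells labelled HepG2 and -0.72 in Huh7. Both were singled out because the 2 lines went in opposite directions by more than 1.5-fold each, and with 1 library per group the difference between lines was not tested. In the long noncoding table, which no comparison used, a transcript of AC026461.3, which lies just past the end of MT2A on the opposite strand, stood at 0.345 FPKM in treated and 0.175 FPKM in untreated cells labelled HepG2 and at 0 in both Huh7 libraries. The assembled transcript over MT1A stood at 1.28 FPKM in treated and 0.472 FPKM in untreated Huh7 cells and at 0 in both libraries labelled HepG2.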

How the results depend on the processing

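With 1 library per group leaving out a library leaves nothing to compare, and no value has a spread between cultures. The limma count over all genes was 0, and 1 of 10033 with a minimum of 5 FPKM, which was no metallothionein, MTF1 or SLC30A1; the smallest adjusted p was 0.0817, and 0.0326 with that minimum. It was 0 under every other setting, including the fit without the replicate block (no pairing by cell line), where 112 genes in place of 1534 had an unadjusted p below 0.05. No gene of the group was called by limma in any setting. Of 14 ratios read for the group, 13 stayed above 0 in every setting, the exception being SLC30A1 in Huh7 (-0.02 with size factors). MT1E in cells labelled HepG2 came to 0.03 with size factors. Before any change of setting, the median over all genes read was 0.09 in cells labelled HepG2 and 0.10 in Huh7. Most of all genes read thus lay above 0 as well, and their share above 0 in every setting was not computed. The count of genes at least 2-fold higher was 1 in cells labelled HepG2 throughout, and 5 in Huh7 apart from 4 with size factors. Between untreated lines it was 5, or 4 with a minimum of 5 FPKM, which drops MT1A. Over all genes read, a pseudocount of 0.1 gave 1331 higher in cells labelled HepG2 and 970 in Huh7, and rescaling gave 1503 and 767, in place of 794 and 464. With the same 2 settings the lower counts were 413 and 422, then 363 and 417, in place of 288 and 261. A minimum of 5 FPKM gave 533 higher and 244 lower, and 344 higher and 214 lower.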
